A study of Mus musculus with 22 samples.

Results

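The RNA levels of 10 genes of RNA polymerase I (Pol I) transcription and of the nucleolus were examined: *Polr1a*, *Polr1b*, *Polr1c*, *Polr1d*, *Polr1e*, *Ubtf*, *Rrn3*, *Taf1b*, *Ncl* and *Fbl*. They were taken by name from the 39179 genes counted in every sample, because PHF8 is known to act at the ribosomal RNA genes. Their measured values did not set the choice, but earlier results of these data were known when it was made. All 10 were found and all 10 passed the filter on low counts in every comparison.

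RNA-seq counts were available for 22 samples of mice on a mixed B6x129SvJ background, in 4 tissues or cell types, each with wild-type (WT) and *Phf8* knockout (KO) samples. They comprise embryonic stem cells (ESCs, 2 WT and 2 KO) grown out from blastocysts and kept on gelatin or feeder cells, neural progenitor cells (NPCs, 3 WT and 3 KO) taken from E16.5 embryos and grown as a monolayer, and the ventral striatum (STR) and prefrontal cortex (PFC) of mice aged 2 months (3 WT and 3 KO each). *Phf8* is X-linked, and the KO allele lacks internal exons that encode part of the catalytic JmjC domain in every cell. The methods describe targeted ESC clones, and how many lines or animals stand behind the samples of a group, and whether the STR and PFC samples share animals, is not given in the sources used here. The p-values below therefore measure the spread between these samples, which may be technical.

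Pol I makes a single transcript, the precursor of the large ribosomal RNAs, from the repeated rDNA genes inside the nucleolus. The factor SL1 and the HMG-box protein UBF mark the rDNA promoter, the initiation factor TIF-IA (encoded by *Rrn3*) brings the polymerase to it, and nucleolin and fibrillarin act on the new transcript as it is processed and assembled. The pathway is most active in growing and dividing cells, and PHF8, a demethylase of histone H3, has been described at rDNA promoters together with Pol I.

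The reads counted on genes numbered 5898286 to 15539811 per sample. Levels are given as CPM (edgeR's library-size-scaled counts, with TMM over all 22 samples). *Phf8* itself was at 38.6 to 71.3 CPM in the WT samples and at 13.4 to 22.3 CPM in the KO samples, with no overlap in any tissue. Reads from the remaining exons are still counted, so the residual level does not measure functional mRNA. Among the markers fixed for each label, the ESC, NPC and striatal lists were highest under their labels. The summed ESC markers reached 2991 to 3712 CPM in ESCs and at most 5.80 CPM elsewhere. The NPC markers were highest in NPCs (5623 to 8382 CPM). The striatal projection neuron markers lay at 560 to 769 CPM in STR and 90.6 to 114 CPM in PFC. Cortical projection neuron markers were less separated, at 317 to 452 CPM in WT STR and 650 to 832 CPM in WT PFC. Some libraries stood apart. Replicate 2 of the ESCs, in WT and in KO, held 3448 and 4198 CPM of fibroblast or feeder markers, against 156 and 148 CPM in replicate 1. Replicate 2 of the NPCs held 38.4 (WT) and 160 (KO) CPM of oligodendrocyte markers, against 1311 to 2262 CPM in the other NPC samples. The brain samples held 759 to 1262 CPM, so the NPC samples outside replicate 2 were richer in these markers than brain. Astrocyte markers summed to 151 to 1956 CPM in NPCs and 242 to 356 CPM in brain. KO replicate 1 of STR held 127 CPM of hypothalamus markers and 62.0 CPM of cortical projection neuron markers, where the other STR samples held at most 16.8 CPM and at least 298 CPM. In bulk RNA, fewer cells of a kind and less RNA per cell cannot be told apart.

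The promoter windows of 3 genes are shown because these genes differed most between ESCs and NPCs (described further on). They are the 250 bases before the RefSeq start site (GRCm38.p6), on the strand of the gene and 5′ to 3′.
*Ncl*, chr1:86359456-86359705, minus strand: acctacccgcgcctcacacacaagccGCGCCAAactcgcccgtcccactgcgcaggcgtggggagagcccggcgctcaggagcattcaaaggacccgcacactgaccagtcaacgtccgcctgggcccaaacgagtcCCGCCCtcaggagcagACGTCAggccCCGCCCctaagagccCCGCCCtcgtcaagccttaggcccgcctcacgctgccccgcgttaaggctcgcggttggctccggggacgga
*Polr1b*, chr2:129100746-129100995, plus strand: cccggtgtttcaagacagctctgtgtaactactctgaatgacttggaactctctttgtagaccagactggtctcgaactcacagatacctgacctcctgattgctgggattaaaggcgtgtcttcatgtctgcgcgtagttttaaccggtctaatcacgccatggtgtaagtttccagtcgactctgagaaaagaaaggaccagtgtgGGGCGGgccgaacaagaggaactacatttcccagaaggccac
*Rrn3*, chr16:13780449-13780698, plus strand: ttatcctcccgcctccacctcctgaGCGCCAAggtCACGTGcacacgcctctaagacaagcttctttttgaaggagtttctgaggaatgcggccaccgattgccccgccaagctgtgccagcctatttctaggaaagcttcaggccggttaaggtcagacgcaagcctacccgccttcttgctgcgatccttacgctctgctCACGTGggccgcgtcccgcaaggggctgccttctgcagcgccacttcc
Capitals mark matches, on either strand, to 7 short motifs: CACGTG (the E-box read by MYC family proteins), GGGCGG (a GC box), CCGGAA (an ETS core), TTGGCGC (an E2F core), TGACGT (a CRE core), CCAAT and TATAAA. None of the marked matches overlap each other. *Ncl* holds 3 GC boxes, 1 E2F core and 1 CRE core, *Rrn3* holds 2 E-boxes and 1 E2F core, and *Polr1b* holds 1 GC box. The E-box was present in 6.02% of the 32851 windows of all genes and in 1 of the 9 members with a window (*Rrn3*). The E2F core was present in 1.97% of all windows and in 3 members (*Ubtf*, *Rrn3* and *Ncl*). The GC box was present in 32.7% of all windows and in 5 members, the ETS core in 12% and in 2, the CRE core in 6.47% and in 2, CCAAT in 33.8% and in 2, and TATAAA in 12.4% and in none. These are matches of letters and not measured binding. The percentages count windows, whereas a member counts if any of its windows matches, and *Ubtf* had 6 windows. *Fbl* had no entry.

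The first question was whether loss of *Phf8* altered these RNAs. None of the 10 genes changed between KO and WT in any tissue at an FDR under 0.05 (edgeR's quasi-likelihood test, Benjamini-Hochberg adjusted over all genes tested). Of all genes tested, 0% were called in ESCs, 0.00697% in NPCs (a single gene, *Phf8*), 0% in STR and 0.638% in PFC. The deleted gene *Phf8* was thus not called in ESCs or in STR. Its mean there was 67.3 CPM in WT and 19.4 CPM in KO ESCs, and 46.5 CPM in WT and 17.9 CPM in KO STR. A gene without a call in these tissues may therefore still have changed. At an unadjusted p under 0.05 the members counted 0, 0, 1 and 0 in ESCs, NPCs, STR and PFC, beside 1.13%, 3.03%, 8.70% and 11.2% of all genes. Over the 40 comparisons of a member in a tissue, the log2 fold change (KO minus WT) ran from -0.29 to 0.18 with standard errors of 0.07 to 0.20. The 95% intervals bound the changes these samples leave possible: 38 of the 40 lay within 1.5-fold in either direction, and the exceptions were *Polr1b* in NPCs, which reached down to 0.632-fold, and *Taf1b* in ESCs, which reached down to 0.666-fold. In a further 58 fits with other settings or with a library left out, no member was called in any tissue.

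**Figure D1:**
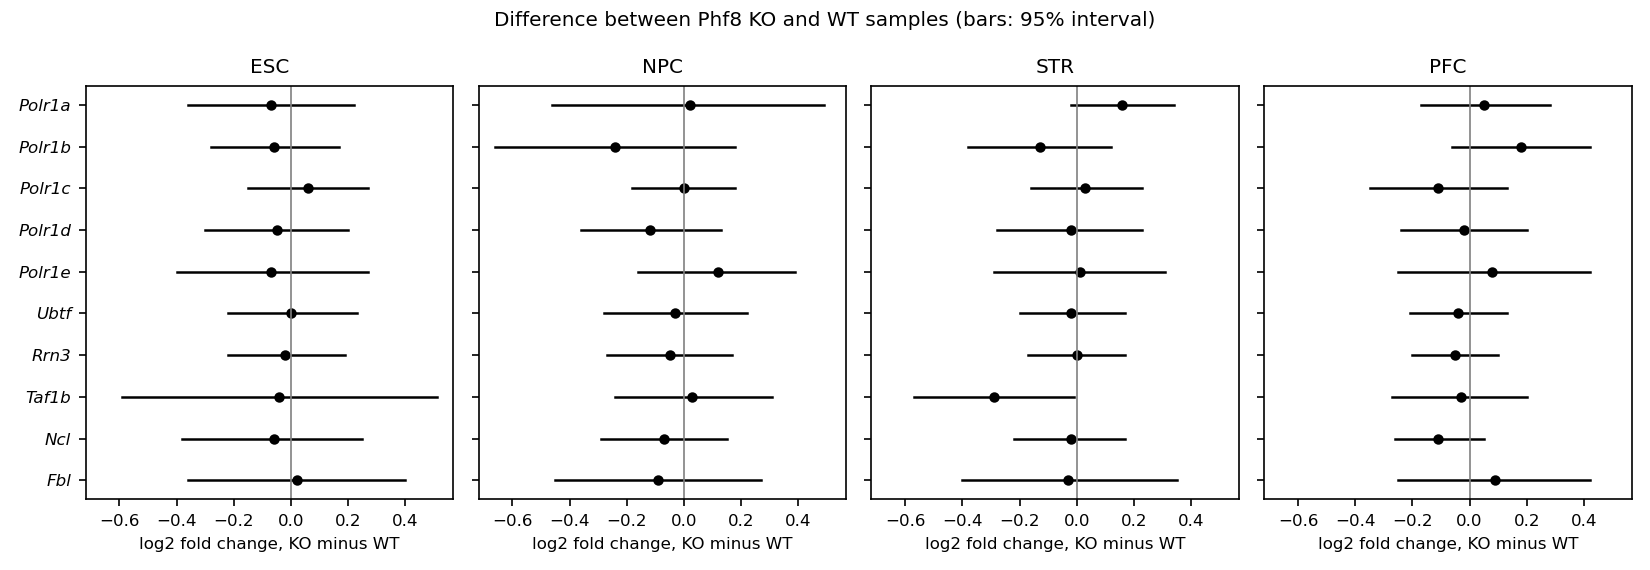
Log2 fold change (x axis, KO minus WT) of the 10 genes in ESCs, NPCs, STR and PFC, with points for the estimate and bars for the 95% interval. All intervals hold 0 except that of *Taf1b* in STR, which ends at -0.01.

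*Polr1a* and *Polr1b* encode the largest subunits, which form the active site of Pol I. *Polr1a* (ENSMUSG00000049553, GRCm38 chromosome 6, 71909053 to 71984935, plus strand) stood at 237 and 217 CPM in the WT ESCs, and the KO ESCs had 242 and 192 CPM. In STR it was at 51.0, 56.3 and 50.2 CPM in WT, against 60.2, 57.9 and 57.5 CPM in KO. Every KO sample of STR thus lay above every WT sample, with a log2 fold change of 0.16 ± 0.08 (SE) and an adjusted p of 0.611 by edgeR. In PFC, where WT was at 47.9, 56.7 and 42.6 CPM and KO at 53.1, 48.8 and 53.2 CPM, the groups overlapped (0.05 ± 0.10, adjusted p = 0.912). *Polr1a* shares 1.56% of its exon bases with an antisense gene, *Gm26628*, and the counts of the cultures are named as not stranded.

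*Polr1b* (ENSMUSG00000027395, chromosome 2, 129100995 to 129126594, plus strand) gave the lowest estimate in NPCs and the highest in PFC. In NPCs it was at 34.8, 51.3 and 36.8 CPM in WT, against 31.6, 38.6 and 33.7 CPM in KO, a log2 fold change of -0.24 ± 0.18 (adjusted p of 1 by edgeR). In PFC it was at 26.9, 29.8 and 26.8 CPM in WT, against 36.1, 29.9 and 29.7 CPM in KO, a log2 fold change of 0.18 ± 0.11 (adjusted p = 0.614). The higher WT value of the NPCs belongs to replicate 2, the library low in oligodendrocyte markers. In STR *Polr1b* was at 30.7, 34.2 and 31.1 CPM in WT and 30.0, 31.7 and 25.4 CPM in KO. The difference of the KO effect between PFC and STR was 0.34 ± 0.16 on the log2 scale (unadjusted p = 0.0453 by edgeR's quasi-likelihood test, adjusted p = 0.761).

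*Polr1c* and *Polr1d* encode subunits that Pol I shares with RNA polymerase III, and *Polr1e* a subunit specific to Pol I. *Polr1c* (ENSMUSG00000067148, chromosome 17, 46243920 to 46248054, minus strand) was in NPCs at 55.3, 56.4 and 54.4 CPM in WT and 56.6, 52.6 and 56.7 CPM in KO (0.00 ± 0.08). *Polr1d* (ENSMUSG00000029642, chromosome 5, 147077050 to 147111597, plus strand) had log2 fold changes between -0.12 and -0.02 in the 4 tissues, each smaller than 1.5 times its standard error. *Polr1e* (ENSMUSG00000028318, chromosome 4, 45018583 to 45036565, plus strand) rested on 65 to 150 counts per brain sample, and its log2 fold changes were 0.01 ± 0.13 in STR and 0.08 ± 0.15 in PFC.

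*Taf1b*, a subunit of SL1, had the smallest p among the members. *Taf1b* (ENSMUSG00000059669, chromosome 12, 24498359 to 24558539, plus strand) was at 33.0, 31.1 and 29.9 CPM in WT STR and at 23.4, 29.9 and 23.1 CPM in KO STR. The highest KO and the lowest WT value both round to 29.9, with the groups just apart, and the log2 fold change was -0.29 ± 0.12 (unadjusted p = 0.0423 by edgeR's quasi-likelihood test, adjusted p = 0.561). *Taf1b* and *Polr1a* were the 2 of 10 members without overlap in STR, beside 13.1% of all genes tested there. In ESCs, NPCs and PFC no member was free of overlap, beside 20.8%, 8.27% and 17.1% of all genes. In PFC *Taf1b* was at 28.1, 27.2 and 27.4 CPM in WT and 24.7, 30.8 and 26.0 CPM in KO, and the difference of the KO effect between PFC and STR was 0.29 ± 0.16 (adjusted p = 0.869 by edgeR).

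*Ubtf* and *Rrn3*, whose products mark the rDNA promoter and recruit the polymerase to it, had narrow intervals around 0. *Ubtf* (ENSMUSG00000020923, chromosome 11, 102304560 to 102319742, minus strand) was at 432 and 429 CPM in WT ESCs and 437 and 429 CPM in KO ESCs, a log2 fold change of 0.00 ± 0.08. *Rrn3* (ENSMUSG00000022682, chromosome 16, 13780708 to 13814839, plus strand) was at 88.5, 97.1 and 90.2 CPM in WT STR and 95.8, 86.1 and 93.0 CPM in KO STR, a log2 fold change of 0.00 ± 0.08. In PFC the estimates were -0.04 ± 0.08 for *Ubtf* and -0.05 ± 0.07 for *Rrn3*, and the intervals excluded changes beyond 0.864-fold and 0.872-fold downwards.

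*Ncl* and *Fbl* encode nucleolin, an RNA-binding protein of the nucleolus, and fibrillarin, the methyltransferase of box C/D snoRNPs. *Ncl* (ENSMUSG00000026234, chromosome 1, 86344719 to 86359400, minus strand) was at 4796 and 4269 CPM in WT ESCs and 4800 and 3921 CPM in KO ESCs, where the lower value of each genotype belongs to replicate 2, the library rich in feeder markers. In PFC *Ncl* was at 239, 227 and 245 CPM in WT and 221, 214 and 229 CPM in KO, with 1 KO sample inside the WT range (-0.11 ± 0.07, adjusted p = 0.654 by edgeR). *Fbl* (ENSMUSG00000046865, chromosome 7, 28169710 to 28179269, plus strand) was at 9.02, 8.21 and 7.21 CPM in WT PFC and 8.72, 8.43 and 9.19 CPM in KO PFC, from 46 to 94 counts per sample (0.09 ± 0.15).

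**Figure D2:**
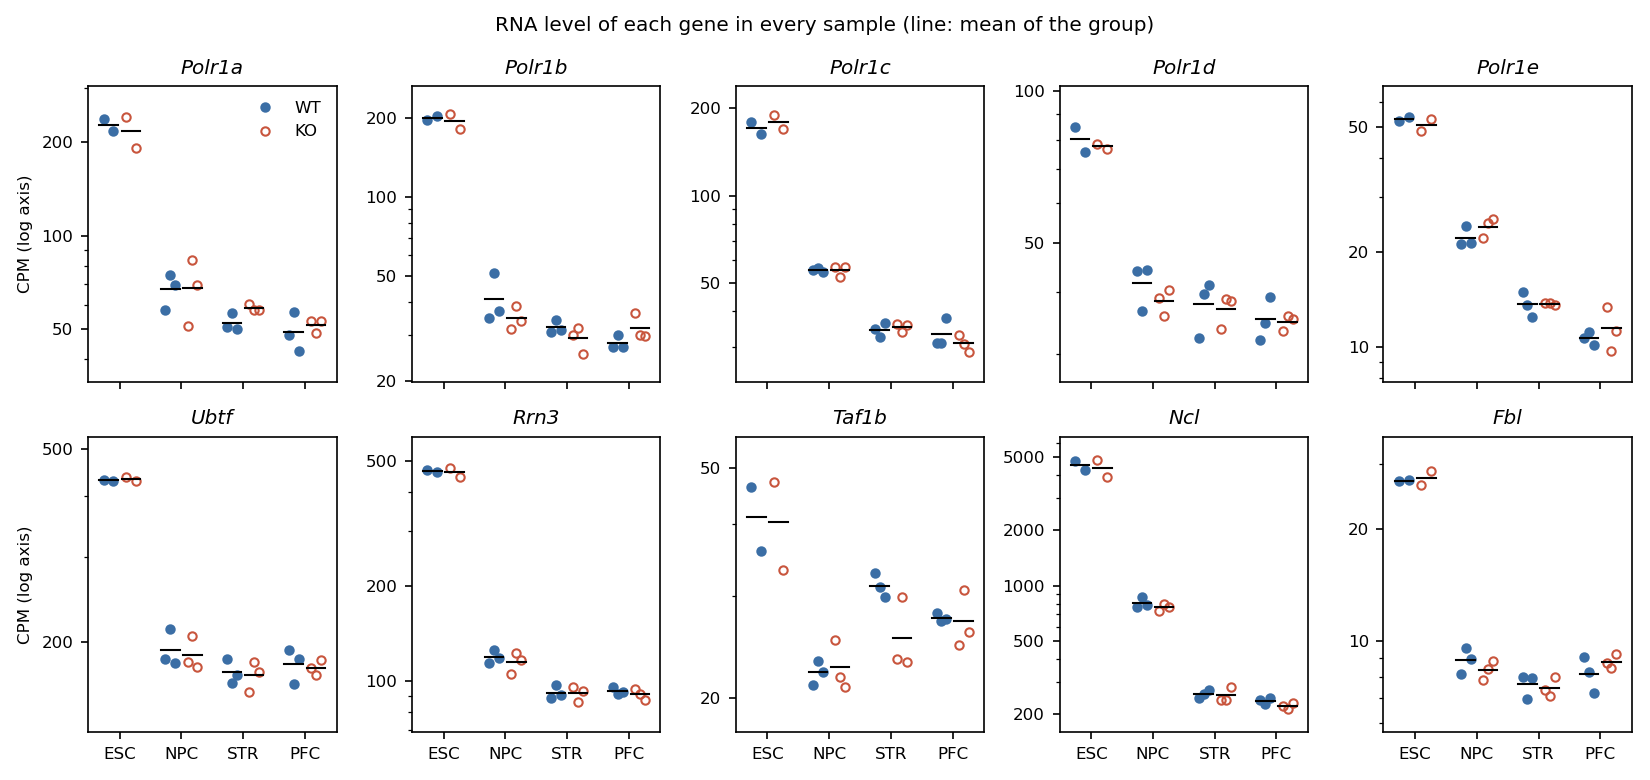
CPM (y axis, log scale, a scale of its own in each panel) of each gene in every sample of ESCs, NPCs, STR and PFC, with filled points for WT, open points for KO and lines for group means. WT and KO points overlap in each panel and tissue except *Polr1a* and *Taf1b* in STR, while ESC points lie above all others, as for *Ncl* (3921 to 4800 CPM against at most 863 CPM).

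The other genes of the pathway gave the same count. Of 99 genes in lists of other Pol I subunits, subunits shared by the polymerases, SL1 and termination factors, rDNA chromatin proteins and regulators, snoRNP proteins, factors of small and large subunit assembly, *Npm1*, and the subunits of RNA polymerases II and III, 0 were called by edgeR between KO and WT in any of the 4 tissues. At an unadjusted p under 0.05 they counted 5 in PFC, 3 in STR, 2 in NPCs and 0 in ESCs. The shares of all genes tested were 11.2%, 8.70%, 3.03% and 1.13%. DESeq2 called 1 of the 99, in PFC, where it called 182 of all genes. The smallest adjusted p among the 99 was that of *Cavin1*, a caveolar protein also known as the Pol I release factor PTRF, in PFC (-0.58 ± 0.12, adjusted p = 0.0535 by edgeR). The astrocyte marker *Gfap* and the oligodendrocyte marker *Mog* fell in KO PFC by 0.49 and 0.95 on the log2 scale (adjusted p = 0.0114 and 0.00369 by edgeR), and the oligodendrocyte marker sum was 815 to 861 CPM in KO and 908 to 1262 CPM in WT. Their part in the PFC values was not tested. No member differed in its KO effect between the 2 brain regions, where 0.00624% of all genes were called, or between ESCs and NPCs, where 0% were called, by edgeR or by DESeq2. At an unadjusted p under 0.05 the members counted 1 (*Polr1b*) and 0, beside 6.41% and 1.49% of all genes.

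The levels differed far more between ESCs and NPCs. All 10 genes were higher in ESCs in WT samples, as were 39.8% of all genes tested (72.0% were called in either direction). All 10 were also higher in KO samples, as were 39.7% of all genes. The median log2 difference of the members was 1.67 in WT and 1.7 in KO, where the median over all genes was 0.13 and 0.11. The WT and the KO values share no sample. All 10 were also called in each fit that left out a library or changed the scaling, the filter or the tool.

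**Figure D3:**
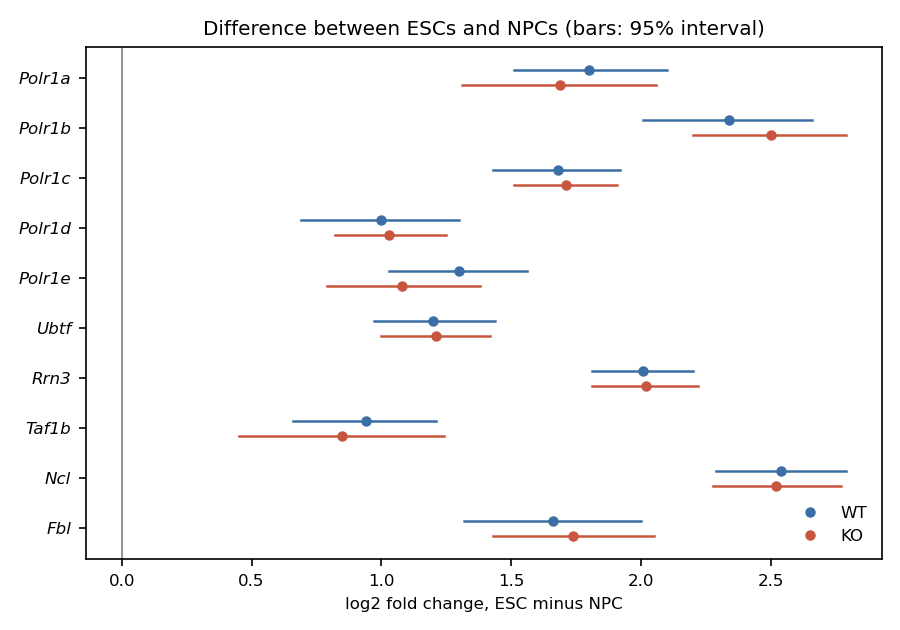
Log2 fold change (x axis, ESC minus NPC) of the 10 genes in WT and in KO samples, with points for the estimate and bars for the 95% interval. All 20 intervals lie above 0. In WT the estimates run from 0.94 (*Taf1b*) to 2.54 (*Ncl*).

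*Ncl* differed most. It was at 765, 863 and 789 CPM in WT NPCs, against 4796 and 4269 CPM in WT ESCs, 5.81-fold higher in ESCs (95% interval 4.89 to 6.90, adjusted p = 8.5e-09 by edgeR). *Polr1b* followed at 5.05-fold (4.04 to 6.33) and *Rrn3* at 4.02-fold (3.52 to 4.58), from 114, 126 and 118 CPM in WT NPCs to 469 and 460 CPM in WT ESCs. *Polr1a* was 3.49-fold higher (2.84 to 4.28), *Polr1c* 3.20-fold (2.70 to 3.78) and *Fbl* 3.15-fold (2.49 to 3.99).

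The remaining members differed less. *Polr1e* was 2.46-fold higher (2.05 to 2.94) and *Ubtf* 2.30-fold (1.95 to 2.72), from 185, 213 and 181 CPM in WT NPCs to 432 and 429 CPM in WT ESCs. *Polr1d*, at 84.8 and 75.7 CPM in WT ESCs and 44.0, 36.6 and 44.2 CPM in WT NPCs, was 1.99-fold higher (1.61 to 2.47). *Taf1b*, at 46.4 and 35.9 CPM against 21.1, 23.2 and 22.2 CPM, was 1.92-fold higher (1.58 to 2.32). The intervals of *Polr1b* and *Polr1d*, both Pol I subunits, do not meet, although the difference between members was not tested. In KO samples the folds were 5.76 for *Ncl*, 5.64 for *Polr1b*, 2.05 for *Polr1d* and 1.80 for *Taf1b*.

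Some library differences move with these values. Dividing-cell markers summed to 3470 to 4429 CPM in ESCs and 1029 to 1677 CPM in NPCs, and their part in the difference was not tested. NPC replicate 2, low in oligodendrocyte and astrocyte markers, had the highest *Polr1a*, *Polr1b*, *Ubtf*, *Rrn3* and *Ncl* values of its genotype in WT (74.7, 51.3, 213, 126 and 863 CPM), and the same held in KO (83.8, 38.6, 206, 123 and 796 CPM). It had the lowest *Polr1d* value in both (36.6 CPM in WT and 35.7 CPM in KO), and in KO the lowest *Polr1c* value (52.6 CPM). In WT, but not in KO, its *Polr1c*, *Polr1e*, *Taf1b* and *Fbl* values were the highest (56.4, 24.2, 23.2 and 9.56 CPM). Its dividing-cell marker sum was also the highest of its genotype, at 1677 CPM in WT (1242 and 1327 in the others). In KO it was 1524 CPM (1029 and 1173 in the others). The part of either marker set in these values was not tested. ESC replicate 2, rich in feeder markers, had the lower *Taf1b* value in WT (35.9 against 46.4 CPM) and in KO (33.3 against 47.3 CPM). Its *Polr1a*, *Polr1c*, *Polr1d*, *Ubtf*, *Rrn3* and *Ncl* values were also the lower ones in both genotypes. *Polr1e* and *Fbl* were higher there in both, and *Polr1b* was higher in WT and lower in KO.

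The wider pathway was measured in the same contrast. Of the 99 other genes, 89 were higher in WT ESCs than in WT NPCs and 6 were lower, as were 32.2% of all genes. The small subunit processome, which cuts and folds the front of the rRNA precursor, had 24 of 24 genes higher (median log2 difference 1.88), the large subunit assembly factors 22 of 23 (1.91) and the snoRNP proteins 8 of 8 (1.91). The other Pol I subunits had 3 of 3 genes higher (1.66), the SL1 and termination factors 5 of 5 (1.16) and the subunits shared by all 3 polymerases 3 of 5 (0.97). *Npm1*, which encodes the nucleolar protein nucleophosmin, was 9.34-fold higher, although 24.3% of its 50-base words also occur in transcripts of other genes, so that its count is uncertain.

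The medians were lower for the other polymerases. RNA polymerase II had 7 of 7 subunits higher (median 0.99) and RNA polymerase III 8 of 10, with 2 lower (0.80). The regulators were split, with 8 of 13 higher and 4 lower. *Mycn*, a MYC family transcription factor, was 42.8-fold higher in WT ESCs (348 ± 19.1 CPM, SD, n = 2, against 8.30 ± 4.90 CPM, n = 3), whereas *Myc* was lower there (0.415-fold). The treacle gene *Tcof1*, whose protein works with UBF, was 7.73-fold higher, and *Rb1*, which encodes a repressor of the cell cycle, was at 0.233-fold. These 4 were named after their values were seen.

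**Figure D4:**
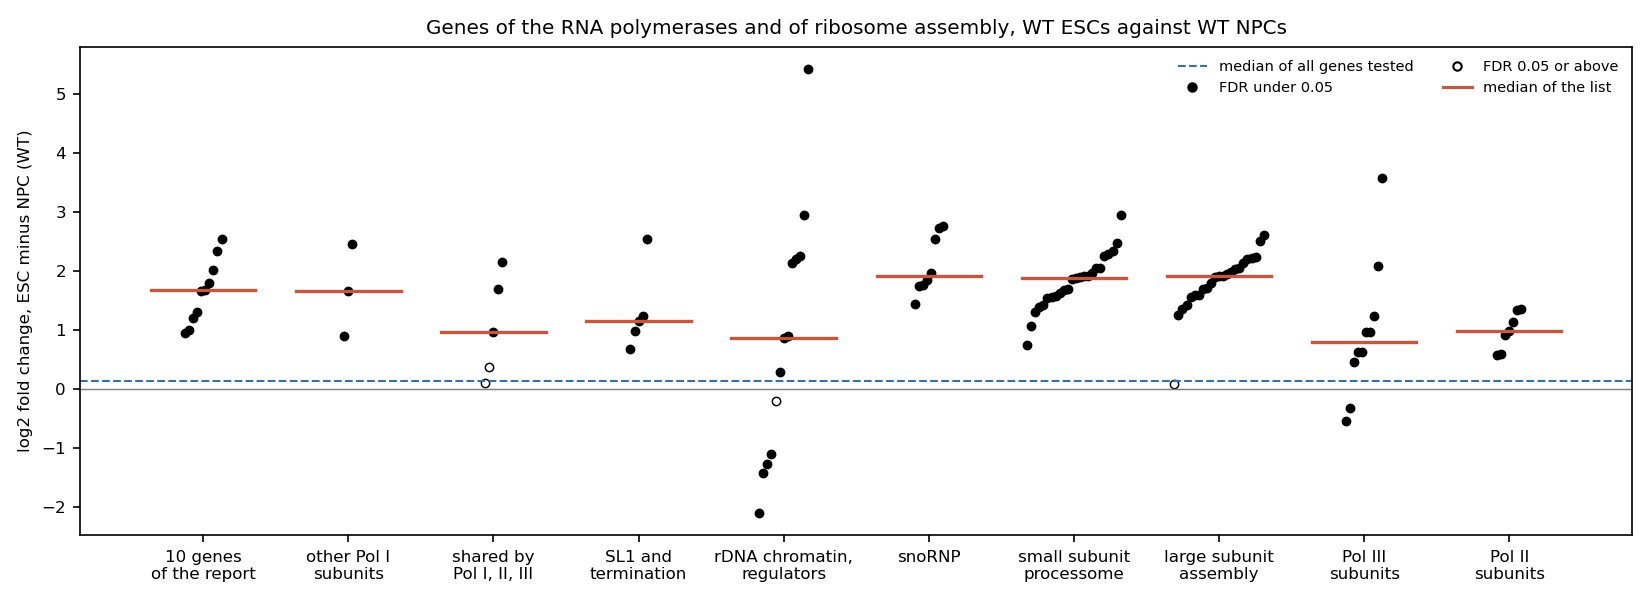
Log2 fold change (y axis, WT ESCs minus WT NPCs) of single genes, grouped along the x axis by list, with filled points for an FDR under 0.05, red lines for list medians and a dashed line for the median of all genes tested (0.13). The members' median (1.67) lies near those of the snoRNP, processome and assembly lists (1.88 to 1.91) and above those of Pol II (0.99) and Pol III (0.80).

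Between the 2 brain regions no member differed. In WT samples 0 of 10 passed the test, where 12.3% of all genes did, and in KO samples 0 of 10, where 14.1% did, and DESeq2 called none either. At an unadjusted p under 0.05 the members counted 1 in WT (*Polr1e*) and 0 in KO, beside 24.4% and 26.5% of all genes. *Polr1e* came nearest: it was at 15, 13.6 and 12.5 CPM in WT STR and at 10.7, 11.2 and 10.2 CPM in WT PFC, without overlap (log2 difference 0.40 ± 0.12, adjusted p = 0.0513 by edgeR). In KO it was at 13.8, 13.8 and 13.6 CPM in STR and at 13.4, 9.75 and 11.3 CPM in PFC (0.26 ± 0.13, adjusted p = 0.245). The other 9 members differed by -0.06 to 0.24 in WT. Of the 99 pathway genes, *Rrp1b*, a large subunit assembly factor, was higher in STR in WT (1.19 ± 0.12, adjusted p = 1.4e-04) and in KO (1.10 ± 0.11), as was *Rcl1*, a processome protein (0.57 ± 0.13 and 0.52 ± 0.14). *Polr3k* was lower in STR in KO samples (-0.35 ± 0.08, adjusted p = 0.0169).

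Levels in cultures and in brain were counted from tables that differ in a way that touches any comparison between them. In all 12 brain samples the highest of the genes with over 500 bases of exon stood at 1.75 to 1.81 counts per base of exon, and the mitochondrial genes summed to 15933 to 16877 counts whatever the depth. In the 10 samples from cultures the highest such gene had 34.9 to 85.7 counts per base. Reads that matched several places were 7.623% to 8.896% of the brain tables and 33.23% to 45.53% of the culture tables. How reads with the same position were treated is not given in the sources used here. The highest member in a brain sample stood at 0.287 counts per base, under the ceiling. These densities are averages over all annotated exons of a gene joined, so single exons may hold more. Whether the limit also lowered the members' counts in brain was not tested. *Ncl* reached 3.89 to 5.23 counts per base in ESCs, so the ratio of *Ncl* between ESCs and brain mixes values on both sides of the ceiling.

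**Figure D5:**
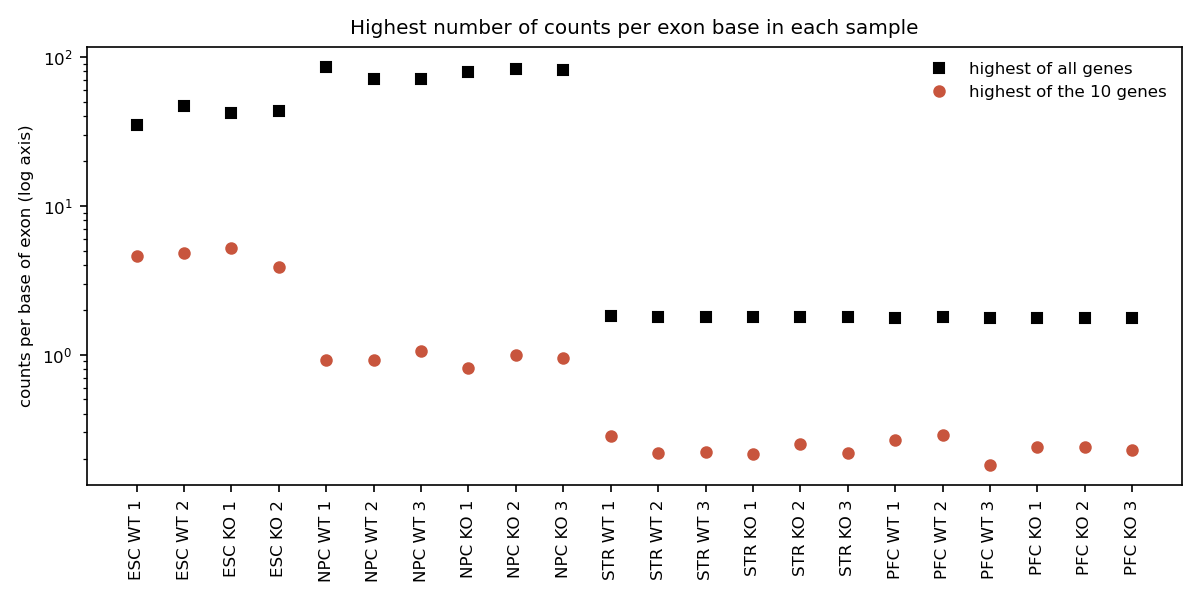
Counts per base of exon (y axis, log scale) in each of the 22 samples (x axis), with squares for the highest of all genes over 500 bases of exon and points for the highest of the 10 genes. The brain samples end at 1.75 to 1.81. The highest of the 10 genes lies below that in brain (at most 0.287) and above it in ESCs, where it is *Ncl*. *Rrn3*, the next in ESCs, was at 1.04 to 1.23, below that ceiling.

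With that limit, all 10 genes were higher in WT ESCs than in WT STR and in WT PFC, where 39.6% and 40.4% of all genes were. The log2 differences from PFC ran from 0.64 for *Taf1b* to 4.32 for *Ncl*, with a median of 2.32 beside -0.09 over all genes. *Ncl* was 20.0-fold higher in ESCs than in PFC (95% interval 16.7 to 24.0) and 17.9-fold higher than in STR (14.9 to 21.5). Culture counts were also compressed smoothly toward a cap of 2 per exon base, a setting chosen after seeing the data. This lowers counts under the cap as well. With it, all 10 remained called against both regions, and the median difference from PFC was 2.12. The cap took the log2 difference of *Ncl* from 4.32 to 2.99 against PFC and from 4.16 to 2.83 against STR. Scaled by total counts only, *Taf1b* lost its call in both and turned to -0.05 against STR. *Taf1b* also lost its call against STR without WT replicate 1 of the ESCs (0.22, adjusted p = 0.157 by edgeR).

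NPCs lay closer to brain, and there the scaling decided several calls. Against WT STR, 6 members were higher in WT NPCs (34.6% of all genes were) and *Taf1b* was lower (-0.52 ± 0.11, adjusted p = 0.00157 by edgeR), as were 40.6% of all genes. Scaled by total counts only, 3 members were higher and 1 lower, and scaled from genes under 0.1 counts per exon base, a setting chosen after seeing the data, 9 were higher and none lower. The calls over all genes moved with them, from 6112 higher and 7181 lower to 4472 and 8898 by total counts, and to 7492 and 5897 from the low-density genes. *Ncl*, *Polr1c* and *Polr1e* were higher under each scaling run. *Ncl* was at 765 to 863 CPM in WT NPCs, 244 to 272 CPM in WT STR and 227 to 245 CPM in WT PFC, 3.08-fold and 3.44-fold higher in NPCs. Against WT PFC, 6 members were higher and *Taf1b* was lower (75.2% of all genes were called). That *Taf1b* call (-0.30, adjusted p = 0.0344 by edgeR) was lost with no filter (-0.27), with the cap (-0.27), with the low-density scaling (-0.01), and without NPC replicate 1 (-0.26) or 3 (-0.30) or PFC replicate 1 (-0.29) or 2 (-0.32). In KO NPCs 4 members were called against STR (75.6% of all genes) and 5 against PFC (76.1%), all higher. The calls of *Polr1a* and *Polr1b* against STR lay near the threshold (both 0.34, adjusted p = 0.0271 and 0.0437 by edgeR). Both were lost with RLE and with DESeq2 (0.29 each), with total counts only, without NPC replicate 2 (0.26 and 0.14, adjusted p = 0.0835 and 0.200), without STR replicate 1 (0.31 and 0.30) and without STR replicate 3 (0.31 and 0.32). The call of *Polr1a* was also lost without NPC replicate 3 (0.31), and that of *Polr1b* without STR replicate 2 (0.39) and with the 2 tissues fitted alone (0.33). Dividing-cell markers summed to 41.5 to 61.0 CPM in brain.

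Of the 99 other genes, 88 were higher in WT ESCs than in WT PFC and 3 were lower, as were 41.9% of all genes. The genes with the largest differences in their lists were *Ddx21* (4.46), *Gnl3* (3.84), *Nop58* (4.43), *Dkc1* (3.37), *Wdr43* (3.70) and *Heatr1* (3.57) of ribosome assembly and the snoRNPs, *Polr1f* (2.22) and *Polr1h* (1.78) of Pol I, *Taf1d* (3.70) and *Ttf1* (1.64) of initiation and termination, and *Mycn* (4.91) and *Mybbp1a* (3.72) of the regulators, all as log2 differences. *Polr3g* and *Polr3b* led RNA polymerase III (4.25 and 2.48), *Polr2a* and *Polr2b* RNA polymerase II (2.76 and 2.05), and *Polr2e* and *Polr2f* the shared subunits (2.22 and 1.7). The lower genes included *Sirt7* (-1.23), an activator of Pol I, and *Polr2l* (-0.68).

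Per exon length, as RPKM, the members kept a wide range within each tissue. The length was that of all annotated exons of a gene joined, 10188 bases for *Ncl* and 6552 for *Ubtf*, and the order depends on it. In WT ESCs *Ncl* was highest (445 ± 36.6 RPKM, SD, n = 2), followed by *Rrn3* (108 ± 1.54), *Polr1c* (75.2 ± 5.39), *Ubtf* (65.7 ± 0.290), *Polr1b* (34.5 ± 0.805), *Polr1d* (26.4 ± 2.11), *Polr1a* (19.1 ± 1.19), *Taf1b* (15.7 ± 2.84), *Polr1e* (13.6 ± 0.297) and *Fbl* (6.44 ± 0.0429). Neighbours in this order differed by more than their SDs except *Taf1b*, whose SD reached both *Polr1a* and *Polr1e*. In WT PFC *Ubtf* was highest (27.6 ± 2.24 RPKM, n = 3), above *Ncl* (23.2 ± 0.894) and *Rrn3* (21.5 ± 0.561), and in WT STR *Ubtf* (26.5 ± 1.6) and *Ncl* (25.3 ± 1.34) did not differ beyond their SDs. By RPKM the order is thus led by *Ncl* in the cultures and by *Ubtf* with *Ncl* in brain. In NPCs *Ncl* (79.1 ± 5.05 RPKM in WT) stood above *Ubtf* (29.5 ± 2.70). By mean CPM, without length, *Ncl* stood above *Ubtf* in WT PFC (237 against 181) and in WT STR (258 against 174).

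*Fbl* was the lowest member in every tissue, and its count is the least certain. In WT ESCs it stood at 6.44 RPKM, over 4209 bases of joined exons, where its box C/D partners *Nop56* and *Nop58* stood at 88.8 and 69.9 RPKM. Of the 50-base words in its transcripts, 19.7% also occur in transcripts of other genes, nearly all in *Tulp4* (809 of 838 shared words). The share was 10.8% for *Polr1d*, 6.46% for *Taf1b*, 2.31% for *Polr1b*, 2% for *Ncl*, 0.765% for *Polr1a* and 0.12% for *Ubtf*, and 0% for *Polr1c*, *Polr1e* and *Rrn3*. *Ncl* shares 2.12% of its exon bases with small RNA genes, among them *Snora75*. Whether shared sequence lowered the *Fbl* counts was not tested.

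Over all 22 samples the members' mean profile (log2 CPM, each gene scaled to unit spread) was followed most closely by *Rrn3* (Pearson r = 0.996) and least by *Taf1b* (0.709), with the other 8 at 0.927 to 0.992. Among 18080 genes, those outside the list with the most similar profile were *Wdr5* and *Sf3a3* (r = 0.997), and *Ddx20*, *Wdr77* and *Dut* (r = 0.996). These correlations run over 4 clusters of samples that share tissue and counting, with the ESC samples apart from the rest.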

How the data were processed

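RNA was sequenced from 22 samples of ESCs, NPCs, STR and PFC. The authors aligned reads with STAR to mm10/GRCm38 (CASAVA 1.7 and STAR per the submitters' processing notes), counted them on Ensembl genes with HTSeq, and deposited raw counts per gene and sample, without normalization. Names, exon lengths and positions came from GENCODE M21 on GRCm38. Of 39179 gene IDs, 37693 matched, with 99.709% of the counts. CPM and RPKM were computed here, and per-sample depth (5898286 to 15539811 counts) limits the low genes, such as *Fbl*.

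KO and WT were compared within each tissue, and tissues within each genotype, with all 4 tissues in 1 fit, by edgeR 4.0.16 (quasi-likelihood, robust, TMM, expression filter, FDR under 0.05) in R 4.3.3. Alternatives were RLE, total counts only, other filters, DESeq2 1.42.0, the exact test, an added log2 fold change beyond 1, a replicate block with and without a GC offset, and each library left out. The pipeline was tested on simulated data. The members and gene lists were chosen with earlier results of these data known. The text names all members and *Phf8*; of each list the genes called between KO and WT (up to 5 by p) and the 2 largest called differences each way in WT ESCs against PFC and WT STR against PFC; and the 5 genes with the profile most like the members' mean. *Cavin1*, *Npm1*, *Nop56* and, in KO STR against PFC, *Polr3k* fall outside this rule and were named after their values were seen. 1 gene that the rule names is not reported here.

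Same-numbered WT and KO samples deviated together in NPCs (r of 0.569, 0.705 and 0.524). The sample names give replicate numbers but state no pairing. The NPC estimates and intervals above come from fits without a replicate block, and the block changed no member's call. In STR and PFC same-numbered samples did not deviate together (r of -0.032 to 0.133). Replicates of each group differed by more than sampling noise (chi-square divided by its degrees of freedom 1.83 to 37.3).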

Additional observations from a re-analysis of the deposited data

How the results depend on the processing

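No member was called between KO and WT under any alternative, including the replicate block, and all 10 were called between ESCs and NPCs in both genotypes under each alternative run. Depth and 2 or 3 samples a group limit what could be detected: the intervals above bound the changes, and the ceiling on brain counts limits every comparison of cultures with brain. The cause of the shifts below was not tested.

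Counts of all genes called between KO and WT moved with the tool and the filter, none of them members. In ESCs (0) they were 3 with DESeq2, 2 with the exact test, 513 with the replicate block (r = 0.876 between same-numbered samples, where 2 pairs are too few to show a pairing, and replicate 2 of both genotypes was the one rich in feeder markers) and 471 with the block and a GC offset. In NPCs (1) they were 0 with total counts only, 2 with no filter, 5 with DESeq2, 2 with the exact test, 3 with the replicate block and 4 with the block and GC offset, and 0 with any library left out. In STR (0) they were 27 with no filter, 53 with DESeq2, 104 with the exact test, 8 with the replicate block and 8 with the block and GC offset, and 0 to 2 with a library left out. In PFC (98) they were 379 with no filter, 182 with DESeq2, 376 with the exact test and 18 with an added log2 fold change beyond 1, and 2 to 154 with a library left out, and *Cavin1* passed with the block (adjusted p = 0.0419 by edgeR). For the interaction with brain region (1), 2 were called with no filter, 19 with DESeq2 and 1 to 3 with a library left out, and with cell type (0) 0 to 1.

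Estimates near 0 changed sign when a library was left out, with no call. In ESCs the ranges were -0.19 to 0.03 for *Polr1a*, -0.19 to 0.05 for *Polr1e*, -0.25 to 0.14 for *Taf1b*, -0.16 to 0.02 for *Ncl* and -0.10 to 0.14 for *Fbl*. In NPCs they were -0.16 to 0.19 for *Polr1a*, -0.10 to 0.06 for *Ubtf*, -0.11 to 0.01 for *Rrn3* and -0.05 to 0.08 for *Taf1b*, and *Polr1a* gave -0.01 with the block and GC offset. In STR they were -0.01 to 0.07 for *Polr1c*, -0.13 to 0.04 for *Polr1d*, -0.05 to 0.08 for *Polr1e*, -0.07 to 0.03 for *Ubtf*, -0.10 to 0.01 for *Ncl* and -0.09 to 0.01 for *Fbl*. In PFC they were -0.03 to 0.18 for *Polr1a*, -0.09 to 0.05 for *Polr1d*, -0.04 to 0.20 for *Polr1e*, -0.10 to 0.01 for *Ubtf* and -0.13 to 0.03 for *Taf1b*. The *Polr1b* interaction with cell type ranged from -0.02 to 0.29.

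With total counts only, *Taf1b* gave -0.05 in WT ESCs against STR. In WT NPCs against STR *Polr1a* and *Polr1b* gave -0.02, *Polr1d* -0.24, *Ubtf* -0.23 and *Fbl* -0.16, and 4 members were called in place of 7. Against PFC *Polr1d* gave -0.08, *Ubtf* -0.22 and *Fbl* -0.20, again with 4 called in place of 7. Scaled from genes under 0.1 counts per exon base, 9 members were called in KO NPCs against STR in place of 4, and 8 against PFC in place of 5, all higher, with 7536 and 7512 genes higher of all in place of 6150 and 6261. With total counts only, 3 were higher and 3 lower against STR, and 3 higher and 2 lower against PFC, with 4480 and 4909 genes higher of all. In WT STR against PFC *Rrn3* gave -0.02 with RLE and with DESeq2, and *Ubtf* 0.01 with total counts only. In KO, *Ubtf* gave 0.03 and 1 member (*Polr1c*) was called with total counts only. With a library left out the ranges were -0.09 to 0.03 for *Ubtf*, -0.02 to 0.05 for *Rrn3* and -0.17 to 0.02 for *Fbl* in WT and -0.08 to 0.02 for *Ubtf*, -0.01 to 0.07 for *Rrn3* and -0.21 to 0.01 for *Taf1b* in KO. All genes called between STR and PFC were 3791 in WT (2174) and 4301 in KO (2437) with the 2 regions fitted alone, and 1234 to 1552 and 1470 to 2106 with a library left out.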

Other observations

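*Polr3g*, which encodes a subunit of RNA polymerase III, was 12-fold higher in WT ESCs than in WT NPCs (205 ± 18.9 CPM, SD, n = 2, against 17.6 ± 0.632 CPM, n = 3, adjusted p = 2.0e-09 by edgeR), whereas *Polr3k* of the same enzyme was lower in ESCs (0.687-fold, adjusted p = 0.00183 by edgeR). *Rrp1* did not follow its paralog *Rrp1b* between ESCs and NPCs: the log2 difference was 0.09 ± 0.15 for *Rrp1* (adjusted p = 0.583) and 1.91 ± 0.12 for *Rrp1b*. *Rrp1b* was at 44.9 ± 5.64 CPM in WT STR and 20.2 ± 2.79 CPM in WT PFC (n = 3 each). These genes were named after their values were seen.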
